A study of Mus musculus with 6 samples.

Results

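The genes that flank Sin3a on mouse chromosome 9 were followed across 3 Sin3a genotypes in newborn testis. The set comprised 297 array probes of the 34365 kept, a kept probe being one that both arrays of some genotype detected well above background. Members had to start between bases 46975655 and 66975655 of chromosome 9 (build mm9), which is 10 Mb on either side of the Sin3a probe. Of 534 probes in that window, 148 were left out by name (6 gene names, Sin3a among them, probes named by a genomic interval, and 6 name families such as olfactory receptor and ribosomal protein genes). A further 89 were not well above background on both arrays of any genotype. The members carried 225 distinct names. RefSeq gene symbols covered 245 of the probes, for 178 genes, and 130 members lay at lower and 167 at higher coordinates than the Sin3a probe. Beyond position and name, members were chosen by one measured value, their detection: 272 of 297 were well above background on all 6 arrays, 13 on both arrays of 2 genotypes and 12 on both arrays of 1 genotype. The last 25 could enter through the genotype in which they were bright, so the main counts below are also given for the 272.

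RNA came from whole testes of male mice at postnatal day 0, on an FVB.129/Sv mixed strain background, with 2 animals per genotype and 1 single-colour Agilent array per animal. All 3 genotypes carried Vasa-cre, in which the promoter of the germ cell gene Ddx4 (Vasa or Mvh) drives Cre recombinase. VSKO mice were Sin3a deleted/floxed, so that their germ cells have 0 functional alleles. HEMI mice were Sin3a deleted/+ with 1 functional allele in the germ cells, and WT mice were Sin3a +/+ with 2. The Cre acts in germ cells, while the RNA is that of the whole organ, somatic cells included. The allele numbers are those of the germ cells, and those of the somatic cells are not given here. Testis markers were present: probes for 8 of 8 germ cell genes and 6 of 6 Sertoli cell genes were kept. The arrays had 59.2% to 64.5% of spots well above background and 0 saturated spots, and replicate arrays correlated at 0.978 to 0.992 across the members. VSKO and HEMI arrays lay in one row of the slide and WT arrays in another, so slide row and genotype cannot be told apart in the comparisons with WT.

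Sin3a encodes a scaffold that holds histone deacetylases on chromatin through sequence-specific repressors, and it is needed for male germ cells to survive. Neighbouring genes on a chromosome are inherited together, so mice selected for a targeted allele also share the chromosome segment around it. On a mixed strain background that segment can come from one parental strain, and genes on it can also share regulatory elements with the targeted gene. The question put to the data was whether genes linked to Sin3a differed between VSKO, HEMI and WT testes, and whether that depended on their distance from it.

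The sequences that follow are the first 30 of the 60 bases of the array probes on which the results turn, 5′ to 3′, as the array files give them. They are the targeted gene, its nearest named neighbours on either side (clone names apart), genes whose probes were compared with each other, and the member with the largest higher value in VSKO among those with separated groups. Capitals mark bases shared by 2 overlapping Dixdc1 probes, which have 52 bases in common and start 8 bases apart.
Sin3a (chr9:56975655-56975714, plus strand): ttttatctgagacctgtttggctttggaat
Ptpn9 (chr9:56909933-56909992, plus strand): ggaccaaggctagaaataaatttacagagc
Man2c1 (chr9:56989908-56989967, plus strand): cttcagtctccaccaaactgagtcttgact
Lman1l, base 1677 of its transcript (chr9:57454840-57454899, minus strand): ccagtgcccacatctcagtttttggcaagt
Lman1l, base 1428 (chr9:57456014-57456073, minus strand): gcatcttcctgttcttcctcctactccaga
Celf6, base 1346 (chr9:59452814-59452873, plus strand): atgaatggctttcaaatcggcatgaagagg
Celf6, base 2701 (chr9:59455036-59455095, plus strand): tctgtctgtccttgtctgtatgttgtgtac
Dixdc1, base 1851 (chr9:50490139-50490198, minus strand): aatctctagcctcatggagcgtctgcatgt
Dixdc1, base 516 (chr9:50518776-50518835, minus strand): CGGGAAATACCTAAAAGTACTTGCCCTGGT
Dixdc1, base 508 (chr9:50518784-50518843, minus strand): aacagcgtCGGGAAATACCTAAAAGTACTT
Fdx1, base 597 (chr9:51751616-51751675, minus strand): gtccgacagtctgttgacatgagcaagaat
Fdx1, base 397 (chr9:51756743-51756802, minus strand): agggaacgttggcttgctctacttgtcatc
Nxpe2 (chr9:48126087-48126131, minus strand): attctatgtgaccccaagaagtattataca
The transcript base is the start that the array files record for each probe. The Nxpe2 probe was placed by the files over 45 bases of the genome. The Lman1l probes start 1174 bases apart, the Celf6 probes 2222 and the Fdx1 probes 5127, and within each of these pairs the longest common stretch was 5 or 6 bases.

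No probe linked to Sin3a passed the threshold used between genotypes, an adjusted p under 0.05 in limma with Benjamini-Hochberg adjustment over all 34365 probes. In VSKO minus WT 0 of 297 members passed, beside 0.727% of all kept probes. In HEMI minus WT 0 passed beside 0.122%, in VSKO minus HEMI 0 beside 0.0873%, and in a moderated F test over the 3 genotypes 0 beside 0.451%. At an unadjusted p under 0.05 the members counted 39 (13.1%) in VSKO minus WT, 29 (9.76%) in HEMI minus WT and 28 (9.43%) in VSKO minus HEMI. The shares over all kept probes were 14.7%, 12.3% and 7.57%, so the members' shares lay near the background. Over the 272 members detected on all arrays the counts were 33 (12.1%), 24 (8.82%) and 21 (7.72%), beside 13.1%, 11.3% and 6.27% of the 30591 kept probes so detected. Which of the 2 shares was the larger turned under some alternatives: with normexp background correction the members were at 14.8% and 13.5% in the comparisons with WT, beside 14.3% and 13.1%, and with median scaling at 6.73% beside 6.75% in VSKO minus HEMI. The lowest adjusted p of any member was 0.0517 in limma, for 1 probe of Lman1l in VSKO minus WT, which passed under 4 of the alternatives. In HEMI minus WT it was 0.147 for Tpm1 and in VSKO minus HEMI 0.0926 for Celf6, which also had the lowest value of the F test (0.0802).

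Signals are given per array on a log2 scale on which 0 is the 75th percentile of that array, in the order of replicates 1 and 2, and differences are log2 differences between group means with the SE of the fit. Sin3a itself gave 0.61 and 0.38 in VSKO, 0.89 and 0.89 in HEMI, and 1.09 and 1.11 in WT. The arrays of the 3 genotypes did not overlap, and the order followed the number of functional alleles in the germ cells. The difference was -0.60 ± 0.13 in VSKO minus WT (adjusted p = 0.147), -0.21 ± 0.13 in HEMI minus WT (0.583) and -0.39 ± 0.13 in VSKO minus HEMI (0.565), so none passed. The probe lies at base 4689 of the transcript. Which exons the deletion removes is not given in the sources used here, so the probe may lie outside the deleted part and is no full check of the labels.

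Clone names apart, the named genes closest to Sin3a were Man2c1, Neil1 and Commd4 above it and Ptpn9 below it, of which Neil1 and Commd4 had separated arrays and the others did not. Ptpn9, a tyrosine phosphatase of secretory vesicles 0.07 Mb below Sin3a, gave 0.05 and -0.21 in VSKO, -0.10 and 0.00 in HEMI, and -0.15 and 0.07 in WT. Man2c1, a cytosolic alpha-mannosidase 0.01 Mb above it, gave 3.30 and 2.90 in VSKO, 3.20 and 3.05 in HEMI, and 3.14 and 3.22 in WT. For both genes the highest and the lowest of the 6 arrays did not separate by genotype, and every difference lay between -0.08 and -0.01. Further out, Snx33, a sorting nexin, and Imp3, a protein of the U3 ribonucleoprotein that processes ribosomal RNA, also overlapped between VSKO and WT, with VSKO minus WT of -0.18 and 0.07.

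Neil1, a DNA glycosylase of base excision repair 0.01 to 0.02 Mb above Sin3a, was covered by 2 probes. The brighter gave 0.29 and 0.21 in VSKO, 0.05 and 0.31 in HEMI, and 0.42 and 0.53 in WT. The dimmer gave -2.64 and -2.83 in VSKO, -3.24 and -2.91 in HEMI, and -2.51 and -2.51 in WT. Both WT arrays were above all VSKO and HEMI arrays on each probe. HEMI minus WT was -0.29 ± 0.15 and -0.56 ± 0.16 (adjusted p = 0.508 and 0.292 in limma), the second being the largest in size among the 40 members within 1 Mb, and VSKO minus WT was -0.22 and -0.23. Commd4, a COMM domain protein 0.03 Mb above Sin3a, gave 2.41 and 2.43 in VSKO, 2.39 and 2.35 in HEMI, and 2.10 and 2.20 in WT. Scamp5, a carrier protein of secretory membranes, gave 0.29 and 0.33 in VSKO, 0.25 and 0.19 in HEMI, and -0.28 and 0.03 in WT. In both genes the WT arrays were lowest and the VSKO arrays highest, with VSKO minus WT of 0.27 ± 0.12 and 0.43 ± 0.15 (adjusted p = 0.38 and 0.29 in limma). Scamp2, of the same family, lay in the same direction at 0.33 and Ulk3, a kinase of autophagy, at 0.24, while Snupn, which carries spliceosomal RNPs into the nucleus, and Rpp25, a subunit of ribonuclease P, gave -0.07 and -0.18.

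Across the 24 members within 0.5 Mb, arrays did not overlap for 14 (58.3%) in VSKO minus WT, 15 (62.5%) in HEMI minus WT and 10 (41.7%) in VSKO minus HEMI. Over all 297 members these counts were 138 (46.5%), 153 (51.5%) and 114 (38.4%), beside 45.7%, 49.1% and 33.1% of all kept probes. Over the 272 they were 129 (47.4%), 141 (51.8%) and 100 (36.8%), beside 45.1%, 49.8% and 32.0% of kept probes on all 6 arrays. Of the 24 members within 0.5 Mb, 2 were not detected on all 6 arrays. They were Cplx3, counted in HEMI minus WT, and 1 probe of Lman1l, counted in every comparison. For the remaining named neighbours the VSKO minus WT difference was -0.33 for Cspg4, a proteoglycan of pericytes, -0.07 for Mpi, which interconverts mannose and fructose phosphates, and 0.05 for Csk, which restrains Src kinases. Cplx3, a complexin of synaptic vesicle fusion, was dim: it was well above background on 1 VSKO array, both HEMI arrays and 0 WT arrays. It was kept only through HEMI, the genotype in which its mean was highest. HEMI was at least 1.26-fold higher than WT (adjusted p = 0.731 in limma). For this bound the mean of the bright group was set against the detection limit of the dim arrays, taken as the lowest signal that any of their detected probes had. Fam219b, whose function is not given here, had VSKO minus WT of -0.01 and -0.22 on its 2 probes.

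The largest difference near Sin3a belonged to 1 of 2 probes of Lman1l, a lectin related to the cargo receptors that carry glycoproteins out of the endoplasmic reticulum. Its probe at base 1677 gave -5.07 and -5.80 in VSKO, -3.41 and -3.41 in HEMI, and -3.21 and -2.58 in WT. The 3 genotypes did not overlap and followed the number of functional Sin3a alleles, and the probe was well above background on 1 of the 2 VSKO arrays. VSKO replicate 2, at -5.80, lay below the lowest signal of any detected probe on that array, -5.57. The size of the differences from VSKO therefore rests in part on a value under detection. The differences were -2.54 ± 0.32 in VSKO minus WT (adjusted p = 0.0517 in limma), -0.51 ± 0.32 in HEMI minus WT (0.578) and -2.03 ± 0.32 in VSKO minus HEMI (0.153). VSKO minus WT passed at -2.58 with median scaling and with the authors' series table (0.0263 in both), at -2.54 with a trend in the variance prior (0.0278), and at a smaller size of -0.90 with normexp background correction (0.0367). The probe at base 1428 gave -2.19 and -1.92 in VSKO, -2.14 and -2.03 in HEMI, and -1.73 and -2.01 in WT. There VSKO and WT overlapped and the VSKO minus WT difference was -0.19, so the probes of this gene disagreed.

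Distance from Sin3a did not order the size of the differences. The median absolute difference in VSKO minus WT was 0.18 for the 40 members up to 1 Mb away, 0.19 for the 51 from 1 to 2.5 Mb, 0.12 for the 42 from 2.5 to 5 Mb and 0.18 for the 164 from 5 to 10 Mb. In HEMI minus WT these medians were 0.19, 0.18, 0.19 and 0.19, and in VSKO minus HEMI they were 0.12, 0.16, 0.16 and 0.15. The rest of chromosome 9, 1085 kept probes with the same names left out, had 0.22, 0.20 and 0.12, and all kept probes 0.20, 0.19 and 0.14. Over the 272 members the 4 bands had 0.18, 0.17, 0.10 and 0.17 in VSKO minus WT. The 2 arrays of a genotype differed from each other by a median of 0.20 in VSKO, 0.18 in HEMI and 0.15 in WT across the members. Divided by the square root of 2, the scale of a difference between means of 2 arrays, these were 0.14, 0.13 and 0.11, while the 3 comparisons between genotype means had medians of 0.18, 0.19 and 0.15. Spearman's rho between distance and absolute difference was 0.02, 0.03 and -0.01 over the 297 probes, a description in which all points share the same 6 arrays. The signal level went with the size of the difference more than distance did, with rho of -0.30, -0.29 and -0.40: dimmer probes differed more.

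The arms on the 2 sides of Sin3a were described apart. From 5 to 10 Mb on the side of lower coordinates, 19 of 70 members (27.1%) had an unadjusted p under 0.05 in VSKO minus WT, against 8 of 94 (8.51%) on the other side, beside 14.7% of all kept probes and 18.2% of the rest of chromosome 9, and 0 in either passed after adjustment. Over the members on all 6 arrays the counts were 15 of 59 (25.4%) and 7 of 92 (7.61%), beside 13.1% of the kept probes so detected. In HEMI minus WT 15 of 70 (21.4%) on the lower side and 5 of 94 (5.32%) on the higher had such a p. In VSKO minus HEMI these were 10 (14.3%) and 2 (2.13%). All kept probes had 12.3% in HEMI minus WT and 7.57% in VSKO minus HEMI. Over the members on all 6 arrays HEMI minus WT had 12 of 59 (20.3%) and 5 of 92 (5.43%), beside 11.3% of kept probes so detected. In VSKO minus HEMI there were 6 (10.2%) and 1 (1.09%), beside 6.27%. The members on the lower side were dimmer, with a median signal of -0.78 against 0.98. On that side 15.7% were not detected on all 6 arrays, against 2.13%. The part of signal level in the counts was not tested. Within 1 Mb, 0 of 14 members on the lower side and 2 of 26 (7.69%) on the higher had an unadjusted p under 0.05 in VSKO minus WT. The counts were the same in HEMI minus WT, and 0 and 1 (3.85%) in VSKO minus HEMI. From 1 to 2.5 Mb, both sides together had 9 of 51 (17.6%), 4 (7.84%) and 10 (19.6%) in these comparisons. There the lower side had 7 of 25 (28.0%) in VSKO minus HEMI, against 3 of 26 (11.5%). From 2.5 to 5 Mb the counts were 1 of 42 (2.38%), 3 (7.14%) and 5 (11.9%). All kept probes had 14.7%, 12.3% and 7.57%.

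The members were also sorted by the order of their group means. The mean was highest in WT and lowest in VSKO for 51 members (17.2%) and the reverse for 45 (15.2%), beside 18.0% and 21.2% of all kept probes. HEMI was the highest group for 91 members (30.6%) and the lowest for 110 (37.0%), beside 27.1% and 33.7% of all kept probes. Stepwise order with no overlap between neighbouring genotypes was found for 9 members with WT highest and VSKO lowest (3.03%, beside 2.44% of all kept probes) and 7 in the reverse order (2.36%, beside 2.60%). Over the 272 these were 8 (2.94%, beside 2.44%) and 5 (1.84%, beside 2.45%). Besides Lman1l, the first group held 1 of 2 probes of Rexo2, a mitochondrial oligoribonuclease, Lingo1, Islr, Cd276, an immune checkpoint ligand, 1 of 2 probes of Anp32a, Megf11, 1 probe of Zfp609 and 1 of Tpm1. Besides Commd4, Scamp5 and Nxpe2, the second held 1 of 2 probes of Nptn, a cell adhesion protein, 1 probe of Map2k5, 1 of Usp3 and 1 probe without a gene symbol. On its brighter probe Anp32a, an acidic nuclear phosphoprotein that binds histones, gave 3.58 and 3.55 in VSKO, 3.61 and 3.62 in HEMI, and 3.95 and 3.91 in WT. All VSKO and HEMI arrays lay below WT (VSKO minus WT -0.37 ± 0.11, adjusted p = 0.25 in limma), and the step between VSKO and HEMI was small. Members of this order were found on both sides of Sin3a, from -8.85 to 9.90 Mb.

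The other genes of the region are described by role, from 9 lists with 58 measured genes and 88 probes. In each list 0 probes passed in any comparison. Medians of the lists can be read against those of all kept probes, which were 0.00 in VSKO minus WT, -0.01 in HEMI minus WT and 0.02 in VSKO minus HEMI.

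Of the steroid, retinoid and cytochrome P450 genes, 4 of 5 were measured with 5 probes. Their median differences were -0.29 in VSKO minus WT, -0.83 in HEMI minus WT and 0.16 in VSKO minus HEMI. Fdx1 encodes the adrenodoxin that passes electrons to the mitochondrial P450 enzymes of steroid synthesis. Its probe at base 597 gave 4.85 and 5.03 in VSKO, 4.84 and 4.93 in HEMI, and 5.56 and 5.95 in WT. The second, at base 397, gave 4.22 and 4.49, 4.35 and 4.53, and 5.12 and 5.60. On both probes the WT arrays were above all others, while VSKO and HEMI overlapped. The differences from WT were -0.82 ± 0.18 and -1.01 ± 0.21 in VSKO and -0.87 ± 0.18 and -0.92 ± 0.21 in HEMI, with adjusted p of 0.140, 0.136, 0.185 and 0.213 in limma. Markers of fetal Leydig cells lay the same way: the median over the 4 of 5 genes with a kept probe, all 4 on all 6 arrays, was 2.67 and 2.75 in VSKO, 2.63 and 3.05 in HEMI, and 3.997 and 4.65 in WT. In a whole organ fewer cells of a type and less RNA per cell cannot be told apart, and the part of these cells in the Fdx1 values was not tested. Cyp19a1, the aromatase that makes oestrogens, gave -2.05 and -4.27 in VSKO, -4.64 and -3.88 in HEMI, and -3.49 and -3.38 in WT, and its VSKO arrays enclosed both WT arrays. Crabp1, a retinoic acid binding protein, was at -0.56 and -0.21 in VSKO, -0.91 and -1.09 in HEMI, and -1.17 and -0.81 in WT, with VSKO minus WT of 0.60. Cyp1a1, an enzyme of the aryl hydrocarbon response, was well above background on 4 arrays in all and overlapped between all genotypes.

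Of the transcription and chromatin genes, 7 of 8 were measured with 10 probes, with median differences of -0.06, 0.13 and -0.16. Zbtb16, the transcription factor PLZF of undifferentiated spermatogonia, gave 0.45 and 0.38 in VSKO, 1.34 and 1.52 in HEMI, and 0.75 and 1.12 in WT. Each genotype was separated from the others, with VSKO lowest and HEMI highest. VSKO minus HEMI was -1.01 ± 0.17 (adjusted p = 0.169 in limma), VSKO minus WT -0.52 ± 0.17 (0.275) and HEMI minus WT 0.50 ± 0.17 (0.354). The median of the 8 germ cell markers, 7 of them on all 6 arrays, was 1.23 and 1.05 in VSKO, 1.04 and 1.24 in HEMI, and 1.30 and 1.54 in WT, so VSKO and HEMI overlapped there; its part in the Zbtb16 values was not tested. Tle3, a corepressor of the Groucho family, had differences of -0.06, 0.00 and -0.06. Arid3b, an AT-rich DNA binding protein, had HEMI minus WT of 0.21 and 0.53 on its 2 probes.

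The testis and sperm list had 3 of 6 genes measured, and 1 probe each: Zbtb16, Tbc1d21 with VSKO minus WT of 0.07, and Ccdc33 with -0.61, so that the list had a median of -0.52. Ccdc33 gave -4.69 and -5.60 in VSKO, -4.47 and -4.65 in HEMI, and -4.92 and -4.15 in WT, and it was well above background on 1 of 2 VSKO arrays. VSKO replicate 2 there, at -5.60, lay below the lowest signal of any detected probe on that array, -5.57. Tex12, a protein of the synaptonemal complex of meiosis that is outside the lists, gave 0.35 and 0.42 in VSKO, 0.79 and 0.93 in HEMI, and 0.79 and 1.06 in WT. Both VSKO arrays were below all others, with VSKO minus HEMI of -0.47 ± 0.15 (adjusted p = 0.51 in limma). Hoatz, needed for cilia and flagella, was well above background on both VSKO arrays and on 0 of the other 4. It was kept only through VSKO, the genotype in which its mean was highest. VSKO was at least 1.79-fold above HEMI (adjusted p = 0.425 in limma), while VSKO at -4.64 and -5.19 overlapped WT at -5.61 and -5.06.

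Genes of TGF-beta and kinase signalling had 10 of 10 measured with 16 probes, and medians of 0.05, 0.09 and -0.03. Skor1, a corepressor of the SKI family, had the largest values of the list. Its probe at base 3588 gave 0.07 and -1.03 in VSKO, -1.81 and -0.94 in HEMI, and -2.08 and -1.78 in WT. The other, at base 3536, gave -0.75 and -1.71, -2.34 and -1.53, and -2.36 and -2.40. On both probes the VSKO arrays were above WT and differed from each other by about as much as the HEMI arrays did, with VSKO minus WT of 1.44 ± 0.46 and 1.15 ± 0.40 (adjusted p = 0.26 and 0.299 in limma). Smad3, the effector of TGF-beta receptors, had differences of no more than 0.03 in size on either probe, and the inhibitory Smad6 no more than 0.07. Map2k1, a MAP kinase kinase, gave 1.26 and 1.51 in VSKO, 1.39 and 1.75 in HEMI, and 2.03 and 1.91 in WT, with both WT arrays highest (VSKO minus WT -0.59). Pias1, Neo1, Clk3 and Csnk1g1 had VSKO minus WT values from -0.35 to 0.14.

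Genes of matrix, adhesion and cytoskeleton had 11 of 11 measured with 20 probes, and medians of -0.01, -0.06 and 0.00. Tpm1, a tropomyosin that binds actin filaments, was covered by 6 probes, with HEMI minus WT from -0.74 to 0.19. The probe with the lowest value gave -1.13 and -1.18 in VSKO, -1.49 and -1.34 in HEMI, and -0.73 and -0.62 in WT, and its genotypes were separated (HEMI minus WT adjusted p = 0.147 in limma). Ncam1, a neural adhesion molecule, had VSKO minus HEMI of 0.51, 0.37 and 0.48 on its 3 probes, with both HEMI arrays lowest on the brighter 2. The dim probe, at 0.37, was well above background on both VSKO arrays, 1 HEMI array and 1 WT array. It was kept only through VSKO, where it was higher than in HEMI. Islr, an immunoglobulin domain protein of mesenchymal cells, gave 3.97 and 3.94 in VSKO, 4.22 and 4.04 in HEMI, and 4.31 and 4.35 in WT. Itga11, a collagen receptor subunit, had differences from WT of -0.27 and -0.42, and Loxl1, which crosslinks elastin, had 0.20 and 0.19 in VSKO minus WT on its 2 probes with overlap throughout.

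The DNA damage and cell cycle list had 7 of 8 genes measured with 12 probes, and medians of -0.07, -0.11 and 0.06. Atm, the kinase that answers double-strand breaks, had VSKO minus WT of -0.12 and 0.08 on 2 probes. Tipin, which protects replication forks, gave 3.73 and 3.82 in VSKO, 3.66 and 3.90 in HEMI, and 3.32 and 3.60 in WT, with both WT arrays lowest (0.32 in each comparison with WT). Usp28, Zwilch and Pml had VSKO minus WT values from -0.18 to 0.20, and Usp3, a deubiquitinase of histones, had 0.20 and 0.31. Pclaf, a partner of the replication clamp PCNA that is outside the lists, gave -2.88 and -3.65 in VSKO, -3.04 and -3.99 in HEMI, and -2.44 and -2.35 in WT. Both WT arrays were highest, and the arrays within VSKO and within HEMI lay far apart, with differences from WT of -0.87 ± 0.40 and -1.11 ± 0.40 on this probe and -0.10 and -0.19 on a second.

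Mitochondrial and metabolic genes had 9 of 9 measured with 11 probes, and medians of 0.14, 0.06 and 0.05. Sdhd, an anchor subunit of succinate dehydrogenase, gave 4.51 and 4.52 in VSKO, 4.55 and 4.49 in HEMI, and 4.47 and 4.55 in WT, and all genotypes overlapped. Dlat, a subunit of pyruvate dehydrogenase, had differences of no more than 0.09 in size. Ireb2, which senses iron, was at -1.09 and -1.28 in VSKO, -1.28 and -1.18 in HEMI, and -1.55 and -1.51 in WT, with both WT arrays lowest (0.34 and 0.30 from WT). Protein turnover genes had 6 of 6 measured with 10 probes, and medians of 0.01, 0.06 and -0.05. Ube2q2, a ubiquitin-conjugating enzyme, had VSKO minus HEMI of -0.64 ± 0.18 and -0.47 ± 0.13 on 2 probes (adjusted p = 0.418 and 0.44 in limma). Arih1, a ubiquitin ligase, had VSKO minus WT of 0.80 on a probe whose WT arrays were at -3.68 and -2.43, and 0.06 on its brighter probe. Of 8 neuronal receptor genes 2 were measured, Chrnb4, a nicotinic receptor subunit, and Lingo1, a Nogo receptor partner, with VSKO minus WT of 0.07 and -0.28.

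Genes outside the lists with large differences and separated arrays were mostly dim. Celf6, an RNA-binding regulator of splicing 2.48 Mb above Sin3a, had the lowest adjusted p between VSKO and HEMI. Its probe at base 2701 gave -1.04 and -0.92 in VSKO, -2.03 and -2.03 in HEMI, and -1.79 and -1.66 in WT. That at base 1346 gave -4.12 and -3.69, -6.13 and -5.47, and -4.60 and -4.55, and was well above background on 1 of 2 HEMI arrays. HEMI replicate 1 there, at -6.13, lay below the lowest signal of any detected probe on that array, -5.72. The size of the differences from HEMI on that probe therefore rests in part on a value under detection. On both probes VSKO was highest and HEMI lowest with no overlap, so the order did not follow the number of functional alleles. VSKO minus HEMI was 1.05 ± 0.13 and 1.89 ± 0.27 (adjusted p = 0.0926 and 0.133 in limma), and VSKO minus WT was 0.75 ± 0.13 and 0.67 ± 0.27 (0.0913 and 0.354).

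Nxpe2, of the neurexophilin and esterase domain family, gave -5.32 and -3.55 in VSKO, -5.44 and -5.35 in HEMI, and -7.43 and -7.42 in WT. It was well above background on both VSKO and both HEMI arrays and on 0 WT arrays, so it was kept through the genotypes in which it was higher. VSKO was at least 1.85-fold higher than WT (adjusted p = 0.109 in limma). The VSKO arrays differed from each other by more than VSKO and HEMI did. Nxpe4, of the same family and 0.08 Mb away, gave -2.31 and -2.61 in VSKO, -2.21 and -2.65 in HEMI, and -3.08 and -3.25 in WT, with both WT arrays lowest and differences from WT of 0.70 ± 0.21 and 0.73 ± 0.21 (adjusted p = 0.235 and 0.284).

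Dixdc1, a DIX domain protein of Wnt signalling, had 3 probes that did not go the same way. The probe at base 516 gave -5.17 and -6.58 in VSKO, -6.45 and -6.73 in HEMI, and -4.60 and -4.77 in WT, and WT was at least 2.17-fold higher than HEMI (adjusted p = 0.225 in limma), where 0 of 2 arrays were well above background. The overlapping probe at base 508 gave a HEMI minus WT difference of -1.30 ± 0.39 and the probe at base 1851 gave 0.14 ± 0.19. At base 508, 1 VSKO array, 1 HEMI array and both WT arrays were well above background. HEMI replicate 2 there, at -6.26, lay below the lowest signal of any detected probe on that array, -5.89. Both overlapping probes were kept only through WT, the genotype in which they were highest. The overlapping probes share most of their sequence, so they are not independent measurements, and the third starts 28637 bases from the one at base 516.

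Pstpip1, an actin-associated adaptor of blood cells 1.00 Mb below Sin3a, gave -1.75 and -2.98 in VSKO, -4.16 and -4.50 in HEMI, and -3.68 and -3.84 in WT. Both VSKO arrays were above all others, and they differed from each other by more than the arrays of any other genotype (VSKO minus HEMI 1.97 ± 0.41, adjusted p = 0.258 in limma). Macrophage markers, 4 of 4 measured, had medians of -0.39 and 0.14 in VSKO, 0.47 and -0.57 in HEMI, and -0.60 and -0.60 in WT; their part was not tested. Gldn, gliomedin of the nodes of peripheral nerve, gave 0.44 and 0.00 in VSKO, -1.48 and -0.68 in HEMI, and 0.24 and 0.16 in WT, with both HEMI arrays lowest (HEMI minus WT -1.28 ± 0.30, adjusted p = 0.219). Isl2, a homeodomain factor of motor neurons, had VSKO minus HEMI of 0.91, and Ankk1, a kinase gene, had HEMI minus WT of -0.87 ± 0.19 with both HEMI arrays lowest.

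Dapk2, a death-associated protein kinase, gave -1.39 and -1.80 in VSKO, -0.53 and -1.28 in HEMI, and -0.71 and -0.49 in WT, with both VSKO arrays lowest (VSKO minus WT -0.99 ± 0.30, adjusted p = 0.239 in limma). Paqr5, a membrane progesterone receptor, gave -2.83 and -1.67 in VSKO, -2.75 and -2.99 in HEMI, and -3.09 and -3.13 in WT, and its second probe was well above background on 3 of 6 arrays. Aph1b, a subunit of gamma-secretase, had differences from WT of 0.69 and 0.73 on one probe and 0.07 and -0.55 on the other. Kbtbd13 had VSKO minus WT of -0.67 and 0.05 on its 2 probes, and Car12, a carbonic anhydrase, had VSKO minus HEMI of 0.75. Slc35f2, a transporter, had -0.50. Nrg4, a growth factor of the neuregulin family, had HEMI at least 1.21-fold above WT on one probe, where 0 WT arrays were well above background. That probe was kept through VSKO and HEMI, whose means were above that of WT. The other had HEMI minus WT of 0.15 with overlap.

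Probes of 1 gene were also compared with each other. Of 56 genes with several member probes, all probes had the same sign in 39 genes in VSKO minus WT, in 38 in HEMI minus WT and in 36 in VSKO minus HEMI. In 4 genes probes overlapped in sequence. The same count was not made over all genes of the array, and probes can also share a sign by chance. Past a difference of 2-fold in either direction, 11 members counted in VSKO minus WT, 7 in HEMI minus WT and 13 in VSKO minus HEMI, which is 3.70%, 2.36% and 4.38%, beside 6.11%, 4.21% and 3.45% of all kept probes. Over the 272 there were 5, 2 and 6 (1.84%, 0.735% and 2.21%), beside 3.31%, 2.17% and 1.69%. Among all members the largest in size, chosen after its values were seen, was Sln, sarcolipin, a regulator of the muscle calcium pump. Sln is outside the 272: it was well above background on 1 VSKO array, both HEMI arrays and both WT arrays. It gave -8.11 and -0.29 in VSKO, -2.37 and 0.75 in HEMI, and 1.43 and -3.33 in WT, so the arrays of each genotype lay far apart and all genotypes overlapped. VSKO replicate 1, at -8.11, lay below the lowest signal of any detected probe on that array, -6.33. The size of the Sln differences from VSKO therefore rests on a value under detection. Skeletal muscle markers, 5 of 5 measured on all 6 arrays, followed the same arrays, with medians of -3.24 and -0.58, -0.45 and 1.52, and 1.48 and -2.31; their part was not tested.

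At the ends of the window values were like those inside it. The outermost members were Cadm1, an adhesion molecule of spermatogenic cells at -9.32 Mb, with differences of 0.30, -0.13 and 0.44 in VSKO minus WT, HEMI minus WT and VSKO minus HEMI, and a Tpm1 probe at 9.90 Mb with 0.17, 0.19 and -0.02. The nearest kept probes outside were a clone-named gene at -10.25 Mb with 0.11, -0.04 and 0.15, and Tln2, a talin, at 10.09 Mb with -0.28, -0.49 and 0.21.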

How the data were processed

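The authors deposited 1 scanner file per array and a series table. Per the file headers, the processed signal is a linear intensity from which background had been subtracted and the spatial trend removed, and the 0 or 1 flags (unit: other) are quality calls. Agilent Feature Extraction modules had version 10.7.3.1 per the file headers and 8.5.1.1 per the submitters' processing notes. The deposited series table holds intensities equal to the processed signal divided by the array median (within 0.00105%). Probe positions are those of the files (mm9); symbols were updated through RefSeq names of GRCm38.p6, with 254 members matched by accession, 15 already such symbols and 28 kept as in the file.

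From the log2 signal the 75th percentile of 59305 non-control spots was subtracted array by array, spots flagged as outliers were dropped, and repeated spots of a probe were averaged. Kept probes were detected well above background by both arrays of some genotype. All 6 arrays were fitted together in limma 3.58.1 (R 4.3.3; 1 mean per genotype, empirical Bayes, 3 residual and 2.24 prior degrees of freedom), with Benjamini-Hochberg adjustment over 34365 probes, and the fit was tested on simulated data. Animals are separate, and 2 per genotype limit the precision. The 3 comparisons share arrays. Named genes were the 8 largest positive and 8 largest negative differences with separated arrays per comparison, members within 0.5 Mb, members of 9 gene lists and the ends of the window, while probes under a clone, accession or predicted-gene name entered the counts only. The values of 1 gene of the lists are not reported here. The members and lists were chosen with earlier results of these data known. Alternatives were other scalings, background correction, filters, fits, probe choices, a 5 Mb window and leaving out each array. Same-numbered arrays showed no common deviation: their deviations from the group means correlated at -0.009 to 0.013. Whether they shared a litter, day or batch is not given in the labels and was not tested.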

Additional observations from a re-analysis of the deposited data

How the results depend on the processing

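In HEMI minus WT and VSKO minus HEMI the count of members that passed was 0 under every alternative run. In VSKO minus WT it became 2 with median scaling and 2 with the authors' series table, the same scaling, 1 with normexp background correction and 1 with a trend in the variance prior; the cause was not tested. Lman1l was the probe called in all 4, at -2.58, -2.58, -0.90 and -2.54 (adjusted p = 0.0263, 0.0263, 0.0367 and 0.0278 in limma), and the second with median scaling had no gene symbol. The F test called 1 member in each of these 4 settings, which was Celf6 with normexp background correction and Lman1l in the others. Leaving out single arrays gave 0 to 1 in VSKO minus WT and in the F test; the call was Nxpe2 without VSKO replicate 1 (adjusted p = 0.0226, with no fold given since 0 WT arrays were well above background), where the lone array is assumed to vary like the others. With the replicate number as a block 0 passed in any comparison, at unadjusted p under 0.05 for 39, 27 and 22 members (13.1%, 9.09% and 7.41%, beside 14.2%, 11.5% and 7.49% of all probes). The median absolute difference within 1 Mb stayed within 0.12 to 0.23 in VSKO minus WT, 0.15 to 0.22 in HEMI minus WT and 0.08 to 0.17 in VSKO minus HEMI. Of 124 named probes, 46, 42 and 60 changed sign under some alternative in the 3 comparisons, and 0 of the 16 largest per comparison did. Under alternatives the count over all probes in VSKO minus WT also moved, from 250 to between 2 (no filter) and 405 (trend in the variance prior), and to between 0 and 86 leaving out single arrays. Dim probes and 2 arrays per genotype limit the precision.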
